A study of Mus musculus with 8 samples.

Results

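The nuclear genes of mitochondrial complexes II to V were compared between Setd1b knockout and control mouse oocytes. Members were all genes of the deposited count table whose mouse symbol begins with the name of a succinate dehydrogenase subunit or assembly factor (Sdha to Sdhd, Sdhaf), a cytochrome bc1 subunit or assembly factor (Uqcr, Uqcc, Cyc1), cytochrome c (Cycs), a nuclear cytochrome c oxidase subunit (Cox4 to Cox8) or an ATP synthase gene (Atp5), without symbols that mark pseudogenes. This gave 57 of 37224 genes, with 8 in complex II, 12 in complex III, 19 in complex IV and 17 in complex V, plus cytochrome c itself.

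These complexes sit in the inner mitochondrial membrane, where complex II passes electrons to ubiquinone beside complex I. Complex II oxidises succinate from the tricarboxylic acid cycle, complex III passes electrons from ubiquinol to the small carrier cytochrome c, complex IV hands them to oxygen, and complex V uses the proton gradient to make ATP. All subunits of complex II are encoded in the nucleus, whereas complexes III, IV and V also contain subunits encoded by mitochondrial DNA. Oocytes carry a very large store of mitochondria, and the mature egg relies on pyruvate oxidation for ATP while it is transcriptionally silent, so its mRNA levels reflect earlier synthesis, storage and decay.

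The samples were 8 single MII oocytes (eggs arrested in the second meiotic metaphase) from superovulated mice, 4 with the genotype label Knock Out (Setd1bGdf9cKO) and 4 labelled Control. Setd1b encodes a histone H3 lysine 4 methyltransferase, and cKO stands for conditional knockout. Gdf9 is a gene of growing oocytes whose promoter is widely used to drive Cre recombinase there, but the labels state neither the Cre line nor the deleted exons, and they give no strain, age or alleles of the controls. Whether different females gave the oocytes of a group is not stated either, so a p-value here sets a difference against library-to-library spread, which may be technical. Each library is 1 oocyte, and levels are shares of a library, so the RNA content per oocyte was not measured.

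Totals were 9488899 to 11313502 counts in knockout and 11029602 to 13519404 in control libraries. Genes with at least 10 counts numbered 11190 to 12153 in knockout and 9913 to 10714 in control libraries, so every knockout library detected more. Setd1b itself (chromosome 5, 123142193 to 123167435, mm10) had 197 knockout and 478 control counts, with every knockout library below every control library and a log2 fold change of -1.44 ± 0.41 (SE; edgeR adjusted p = 0.0221). Without knockout replicate 3 or control replicate 2 the adjusted p was 0.0519 or 0.054. All 12 oocyte markers examined were detected, with a summed level of 19126 to 24775 counts per 1000000 scaled counts (CPM) in knockout and 24105 to 29349 CPM in control libraries. Of 24 marker genes of the surrounding cumulus and granulosa cells, 11 had no count in any library, among them Amh, Foxl2, Inha, Lhcgr and Amhr2. The sum of these 24 genes was 134 to 198 CPM in knockout and 241 to 260 CPM in control libraries, most of it Esr2 and Cyp19a1. At an adjusted p under 0.05 edgeR called 13.6% of all tested genes higher and 12.2% lower. Of the 12 oocyte markers 4 were higher, including Nlrp5 (log2 fold change 1.66) and Zp2 (3.02), and 2 were lower, including Oosp1 (-1.43). Of the 6 tested cumulus and granulosa markers none was higher and 2, Esr2 (-0.80) and Cyp19a1 (-0.85), were lower, and Kitl was at -0.40. The part of these differences in the results was not tested.

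Of the 57 members, 46 passed the filter on low counts of the edgeR test and are called tested below. In knockout oocytes 25 of them were higher and 1, Cox6b2, was lower at an adjusted p under 0.05 (edgeR quasi-likelihood test over 11066 genes), and 20 were not called. Among all tested genes 13.6% were called higher and 12.2% lower. Over the tested members the median log2 fold change (knockout over control) was 1.40 and over all tested genes it was 0.10. In 28 members every knockout library lay above every control library, and in 2, Cox6b2 and Cox5a, every knockout library lay below, where the same held for 17.6% and 13.6% of all tested genes. Only 35 of the 46 reached the minimum level of the filter, 0.895 CPM, in all 4 control libraries, and 20 of these 35 were higher and 1 lower. The other 11 could pass the filter through the knockout libraries, and 5 of them, Cox4i2, Cox7b, Atp5d, Atp5h and Atp5j, were called higher. The p-values of these 5 are no independent support for the difference. DESeq2 called 28 of 54 tested members higher and 2 lower, against 11.8% and 10.1% of its 18227 genes. In edgeR without a filter 23 of 54 were higher and 1 lower, against 8.0% and 6.82% of 18481 genes.

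**Figure D1:**
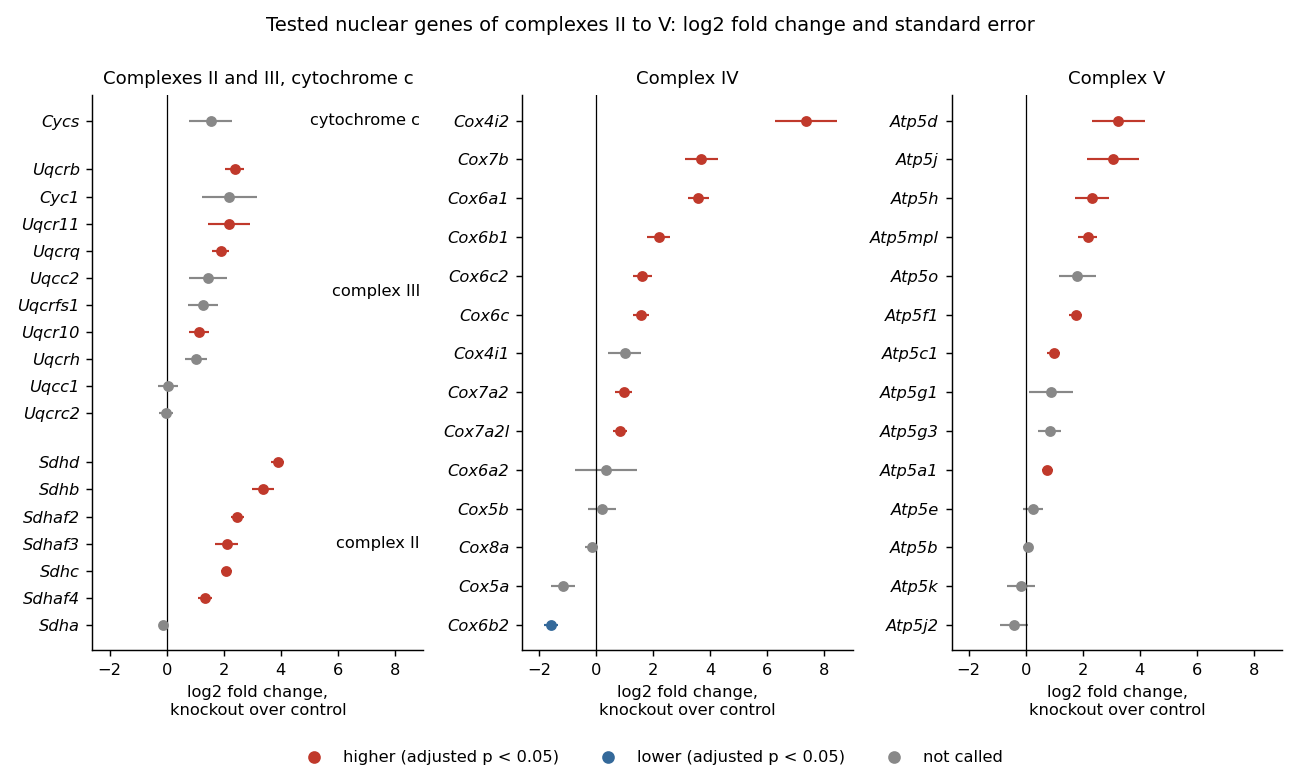
Log2 fold change of knockout over control (points) with its standard error (bars) for the 46 tested members, by complex, with 4 libraries per group. In complex II every tested member but Sdha lies well right of 0, and the other complexes hold both higher and uncalled members, with Cox6b2 the 1 gene called lower.

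Of the 4 complexes, complex II had the largest share of members called. Of its 8 members 7 were tested and 6 were higher, with a median log2 fold change of 2.10. The 4 subunits form a catalytic head of the flavoprotein Sdha and the iron-sulfur protein Sdhb, held in the membrane by Sdhc and Sdhd, which bind ubiquinone. Sdhd (chromosome 9, 50596338 to 50603849, mm10) stood at 178, 184, 121 and 136 CPM in knockout replicates 1 to 4 and at 11.1, 11.8, 9.72 and 9.10 CPM in control replicates 1 to 4. The lowest knockout library was far above the highest control library, and the log2 fold change was 3.89 ± 0.23 (SE, n = 4 per group; adjusted p = 4.69e-06).

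The iron-sulfur subunit Sdhb had 27.2, 29.8, 38.7 and 31.6 CPM in knockout and 4.84, 3.12, 1.40 and 2.90 CPM in control libraries. This was a log2 fold change of 3.38 ± 0.40 (adjusted p = 0.000196). Sdhc, the other membrane anchor, had 119, 117, 89.8 and 106 CPM in knockout and 29.7, 24.5, 24.4 and 22.4 CPM in control libraries, a log2 fold change of 2.10 ± 0.20 (adjusted p = 5.29e-05). Neither gene's groups overlapped. Sdha (chromosome 13, 74322254 to 74350280, mm10), which carries the flavin and oxidises succinate, ranged from 155 to 165 CPM in knockout and from 164 to 190 CPM in control libraries. Its log2 fold change was -0.13 ± 0.15 (adjusted p = 0.544), so the catalytic subunit was not called while the other 3 subunits rose.

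Per length, the balance between the 4 subunits differed between the groups. In control oocytes Sdha stood at 45.2 ± 2.77 CPM per kilobase of exons (RPKM; SD, n = 4), against 8.11 ± 0.970 RPKM for Sdhd, 7.77 ± 0.963 for Sdhc and 1.37 ± 0.630 for Sdhb. Per length, Sdhc and Sdhd did not differ beyond their spread there. In CPM their control libraries did not overlap, at 22.4 to 29.7 for Sdhc and 9.10 to 11.8 for Sdhd. Levels per length use the deposited exon lengths, such as 3250 bases for Sdhc and 1287 for Sdhd. Rankings between genes per length depend on these lengths, here and below. In knockout oocytes Sdhd was the most abundant at 120 ± 24.0 RPKM, followed by Sdha at 41.3 ± 1.28, Sdhc at 33.3 ± 4.13 and Sdhb at 14.2 ± 2.20. Sdha made up 69.4 to 75.7% of the summed level of the 4 subunits per length in the control libraries, and in the knockout libraries the largest part was Sdhd with 51.9 to 61.5%. Sdhb was the least abundant of the 4 in each of the 8 libraries.

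**Figure D2:**
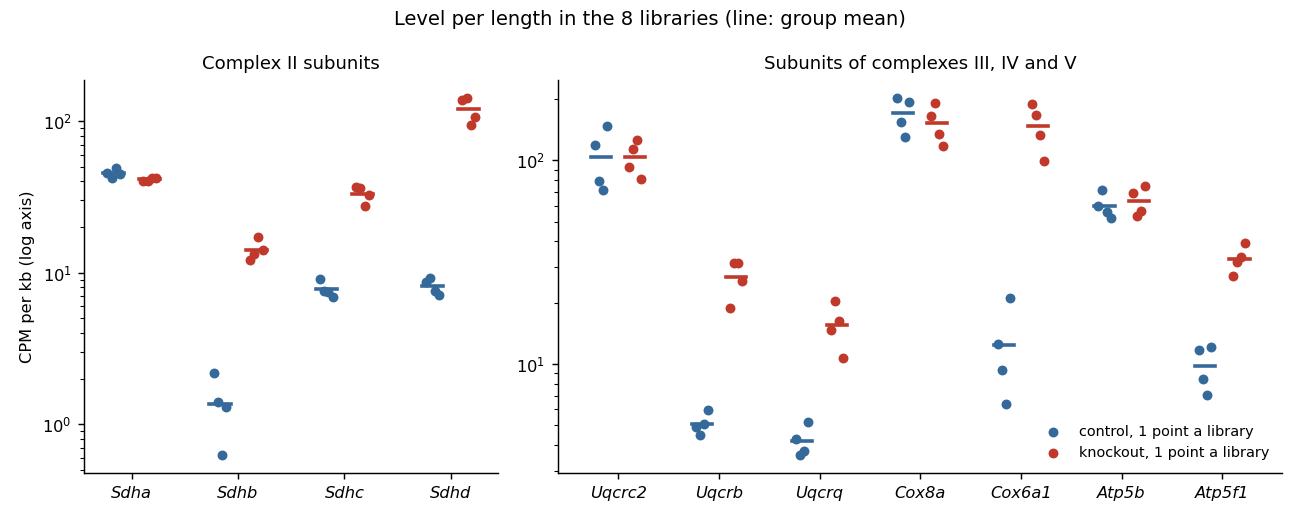
Level per length (CPM per kilobase, log axis) of the complex II subunits and of chosen subunits of complexes III, IV and V, with 1 point a library and a line at each group mean. Sdha, Uqcrc2, Cox8a and Atp5b overlap between knockout and control, and Sdhb, Sdhc, Sdhd, Uqcrb, Uqcrq, Cox6a1 and Atp5f1 do not.

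The promoters of Sdha and Sdhd are shown because these 2 genes encode parts of 1 enzyme and only Sdhd was called. Windows run from 250 bases before to 50 bases after the RefSeq start (GRCm38.p6), 5′ to 3′ on the gene's strand, with capitals for the NRF1 motif (the letters GCGCA, any base, then GCGC) and for the CCAAT box, on either strand. NRF1 is a transcription factor known for nuclear genes of the respiratory chain. The Sdha window is chr13:74350191-74350490 (minus strand) and the Sdhd window is chr9:50603800-50604099 (minus strand).
Sdha: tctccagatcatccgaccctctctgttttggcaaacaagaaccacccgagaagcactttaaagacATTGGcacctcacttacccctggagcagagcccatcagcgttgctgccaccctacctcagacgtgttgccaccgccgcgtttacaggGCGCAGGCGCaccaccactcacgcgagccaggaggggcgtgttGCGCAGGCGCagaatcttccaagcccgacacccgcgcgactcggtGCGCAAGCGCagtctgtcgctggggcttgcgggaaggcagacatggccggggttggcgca
Sdhd: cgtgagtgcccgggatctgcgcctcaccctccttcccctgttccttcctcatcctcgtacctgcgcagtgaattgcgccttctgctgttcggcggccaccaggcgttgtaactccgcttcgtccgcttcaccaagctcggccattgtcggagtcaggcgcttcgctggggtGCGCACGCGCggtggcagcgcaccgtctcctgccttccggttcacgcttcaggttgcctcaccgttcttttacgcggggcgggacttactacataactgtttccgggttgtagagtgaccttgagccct
The Sdha window held 3 NRF1 motifs and 1 CCAAT box, and the Sdhd window 1 NRF1 motif and no CCAAT box. A match is a description of letters and shows no binding.

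All 3 tested assembly factors of complex II rose as well. Sdhaf2, which is needed to attach the flavin to Sdha, had 81.1, 78.6, 83.7 and 96.6 CPM in knockout and 18.7, 12.9, 18.2 and 11.0 CPM in control libraries, with no overlap (log2 fold change 2.48 ± 0.24; adjusted p = 6.09e-05). Sdhaf3, which helps Sdhb receive its iron-sulfur clusters, was higher by a log2 fold change of 2.10, and Sdhaf4, which binds flavin-loaded Sdha, by 1.35. Sdhaf1 had 34 counts in knockout and 35 in control libraries and was not tested, and 65.9% of its exonic bases also belong to the overlapping gene E130208F15Rik.

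In complex III 10 of 12 members were tested and 4 were higher, with a median log2 fold change of 1.36. All 4 are small subunits around the catalytic core. Uqcrb, which lies near the ubiquinone site, had 16.5, 27.5, 27.4 and 22.3 CPM in knockout and 4.29, 3.91, 4.45 and 5.20 CPM in control libraries. Its log2 fold change was 2.39 ± 0.33 (adjusted p = 0.000547). Of its 75-base stretches 16.7% also occur in other annotated transcripts, most of them in Gm16089, so some of its reads may have been lost or misplaced.

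Uqcrq, a neighbour of Uqcrb in the complex, had 26.9, 37.5, 29.7 and 19.6 CPM in knockout and 7.82, 6.55, 6.84 and 9.50 CPM in control libraries (log2 fold change 1.89 ± 0.31; adjusted p = 0.00144). Both genes were higher in each knockout library than in any control library. Uqcr10 had 21.1, 26.6, 25.3 and 14.7 CPM in knockout and 12.6, 10.1, 5.19 and 12.0 CPM in control libraries, a log2 fold change of 1.14 ± 0.36 (adjusted p = 0.0371). Uqcr11 had 32.0, 19.5, 14.9 and 9.02 CPM in knockout and 1.32, 2.00, 1.32 and 11.9 CPM in control libraries, a log2 fold change of 2.19 ± 0.73 (adjusted p = 0.0446).

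The last 2 calls are the weakest of the complex. Control replicate 4 was the exception in Uqcr11, above knockout replicate 4, and without it the log2 fold change was 3.59 (adjusted p = 0.00123). Leaving out any other single library ended the Uqcr11 call, with adjusted p from 0.0502 to 0.135. The Uqcr10 call was lost without knockout replicate 1, 2 or 3 or control replicate 2 or 3, with adjusted p from 0.067 to 0.106.

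The proteins at the centre of complex III were not called in edgeR. Uqcrc2, one of the large core proteins and the most abundant complex III subunit per length in all 8 libraries, ranged from 203 to 315 CPM in knockout and from 180 to 369 CPM in control libraries, with a log2 fold change of -0.01 ± 0.24 (adjusted p = 0.985). It held 63.7 to 71.3% of the summed subunit level per length in control libraries and 37.0 to 45.5% in knockout libraries. The Rieske iron-sulfur protein Uqcrfs1 (log2 fold change 1.27; adjusted p = 0.0946), cytochrome c1 (Cyc1, 2.19; 0.115) and the hinge protein Uqcrh (1.03; 0.0692) had positive values that did not pass. Uqcrh was called higher without control replicate 4 (log2 fold change 1.44; adjusted p = 0.0135), with library totals alone (adjusted p = 0.0120), with at least 10 CPM in 4 libraries (0.0244) and by limma's voom with library quality weights (0.00917), and Uqcrfs1 was called higher with library totals alone (0.0329). Of the assembly factors for cytochrome b, Uqcc1 was at a log2 fold change of 0.05 and Uqcc2 at 1.45 (adjusted p = 0.129). Uqcc3, with 7 knockout and 16 control counts, and the other core protein Uqcrc1, with 85 and 8, were not tested.

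Cytochrome c, encoded by Cycs, was scarce. It had 5.24, 2.48, 2.78 and 3.26 CPM in knockout and 0.220, 1.76, 1.57 and 1.10 CPM in control libraries. The groups did not overlap, but the log2 fold change of 1.55 ± 0.76 did not pass (adjusted p = 0.155). Cycs is also an uncertain gene for counting, since 23.9% of its 75-base stretches occur in other transcripts, its pseudogenes among them.

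Complex IV showed the widest range, from a log2 fold change of -1.58 to 7.36. Of its 19 members 14 were tested, 8 were higher and 1 was lower, with a median of 0.98. Several of its subunits exist as pairs of paralogous genes, often 1 broadly expressed and 1 of muscle, lung or testis, and both called and uncalled members occurred among them. Cox6a1, the broadly expressed form of subunit VIa, had 134, 117, 94.0 and 70.1 CPM in knockout and 8.81, 6.55, 4.45 and 14.9 CPM in control libraries. No library overlapped, and the log2 fold change was 3.59 ± 0.38 (adjusted p = 9.73e-05).

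Its muscle form Cox6a2 had 1.72, 2.78, 2.51 and 2.05 CPM in knockout and 0, 1.92, 0.330 and 4.90 CPM in control libraries. The control libraries spanned the knockout ones, and the log2 fold change of 0.34 ± 1.07 was not called (adjusted p = 0.846). Cox7b, a subunit encoded on the X chromosome, had 24.6, 36.8, 42.8 and 34.4 CPM in knockout and 5.61, 3.20, 0.494 and 1.50 CPM in control libraries. Its log2 fold change was 3.69 ± 0.58 (adjusted p = 0.00113), and 4.30 without control replicate 1. Cox7b reached the filter's minimum level in 3 control and 4 knockout libraries, so this p-value is no independent support for the difference.

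The paralogues of subunit VIb went in opposite directions. Cox6b1 (chromosome 7, 30616974 to 30626151, mm10), the broadly expressed form, had 55.8, 53.9, 48.4 and 44.3 CPM in knockout and 15.6, 5.35, 5.11 and 18.6 CPM in control libraries (log2 fold change 2.19 ± 0.42; adjusted p = 0.00324). Cox6b2 (chromosome 7, 4751794 to 4753094, mm10), known as the testis form, had 32.6, 44.9, 49.6 and 55.7 CPM in knockout and 117, 123, 107 and 199 CPM in control libraries (log2 fold change -1.58 ± 0.25; adjusted p = 0.00113). For Cox6b2 every knockout library lay below every control library, and for Cox6b1 every knockout library lay above. In control oocytes Cox6b2 was the most abundant per length of the 13 tested genes of complex IV other than Cox7a2l, the annotated pseudogene Cox6c2 included, in all 4 libraries, with 30.5 to 42.2% of their summed level. In knockout oocytes Cox6a1, Cox8a or Cox7a2 was the most abundant of these 13, with 18.9 to 20.4%.

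Within a library, the Cox6b2 share of the counts of the pair needs no scaling between libraries. It was 36.8, 45.5, 50.6 and 55.7% in knockout and 88.3, 95.8, 95.4 and 91.5% in control libraries, with means of 47.2 ± 8.05% and 92.7 ± 3.59% (SD, n = 4). The groups did not overlap (exact two-sided permutation p = 0.0286 on the log2 ratio, the smallest that 4 against 4 libraries allow, and 0.0714 adjusted over the 5 pairs examined).

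The promoters of this pair are shown because its 2 genes were called in opposite directions, in the same format as above. The Cox6b1 window is chr7:30626065-30626364 (minus strand) and the Cox6b2 window is chr7:4753045-4753344 (minus strand).
Cox6b1: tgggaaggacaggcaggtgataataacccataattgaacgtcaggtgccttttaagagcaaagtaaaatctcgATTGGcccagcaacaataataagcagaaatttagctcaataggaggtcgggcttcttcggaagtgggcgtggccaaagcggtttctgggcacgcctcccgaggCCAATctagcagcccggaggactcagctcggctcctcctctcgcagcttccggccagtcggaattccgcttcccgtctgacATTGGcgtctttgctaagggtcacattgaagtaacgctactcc
Cox6b2: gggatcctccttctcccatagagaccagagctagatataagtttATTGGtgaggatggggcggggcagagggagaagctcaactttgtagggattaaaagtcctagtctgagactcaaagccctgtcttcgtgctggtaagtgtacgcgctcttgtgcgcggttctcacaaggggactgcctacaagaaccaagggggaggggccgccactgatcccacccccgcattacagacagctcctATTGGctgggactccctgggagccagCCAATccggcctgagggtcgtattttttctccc
Both windows held 3 CCAAT boxes and no NRF1 motif, and they held 17 and 10 CpG dinucleotides.

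Subunit IV was mostly Cox4i1, the general form, with 819 knockout and 337 control counts. Cox4i1 had 23.0, 17.7, 14.9 and 10.3 CPM in knockout and 9.47, 3.51, 2.31 and 17.9 CPM in control libraries, and its log2 fold change of 1.00 ± 0.58 was not called (adjusted p = 0.231). Control replicate 4 lay within the knockout range, and without it the log2 fold change of Cox4i1 was 1.70 and called higher (adjusted p = 0.0398), as it was in voom (1.74; adjusted p = 0.0252). Cox4i2, known from lung and from low oxygen, had 5.99, 9.71, 3.41 and 2.60 CPM in knockout libraries and a single count in the 4 control libraries, in replicate 3 (adjusted p = 0.000789). Its 275 knockout counts against 1 control count gave a ratio of 248 with a 95% counting interval of 44.1 to 9822, which covers counting error only. Cox4i2 made up 20.7, 35.4, 18.6 and 20.1% of the counts of the pair in knockout libraries and 3.45% in control replicate 3. Control replicates 1, 2 and 4 had none, which allows up to 3.49, 6.82 and 1.68% (exact permutation p = 0.0286, and 0.0714 adjusted over the 5 pairs). Cox4i2 reached the filter's minimum level in 0 control and 4 knockout libraries. It and its pair therefore entered the tests only through the group where Cox4i2 is high, and these p-values are no independent support for the difference.

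The other 3 pairs of paralogues kept overlapping shares. Cox7a2, the broadly expressed subunit VIIa, rose by a log2 fold change of 0.96 ± 0.29 (adjusted p = 0.029), with 108, 123, 138 and 113 CPM in knockout and 89.2, 45.1, 33.8 and 80.3 CPM in control libraries. Cox7a2l, its relative that joins complexes III and IV into supercomplexes, rose by 0.84 ± 0.26 (adjusted p = 0.0341), with 34.2, 45.9, 39.6 and 35.2 CPM in knockout and 29.3, 16.5, 18.2 and 23.0 CPM in control libraries. Both calls are near the threshold. Cox7a2 lost its call under 5 of 17 alternative settings, namely without knockout replicate 2, 3 or 4 or control replicate 2 or 3. Cox7a2l lost its call under 9, among them without any single knockout library and without control replicate 2 or 3. The Cox7a2l share of the pair was 24.3 ± 2.09% in knockout and 27.2 ± 5.53% in control libraries (exact permutation p = 0.429, adjusted 0.536). The Cox6a2 share of its pair was 2.26 ± 0.690% and 13.6 ± 12.1% (exact permutation p = 0.229, adjusted 0.381), and control replicate 1 had no Cox6a2 count, which allows up to 3.75%.

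**Figure D3:**
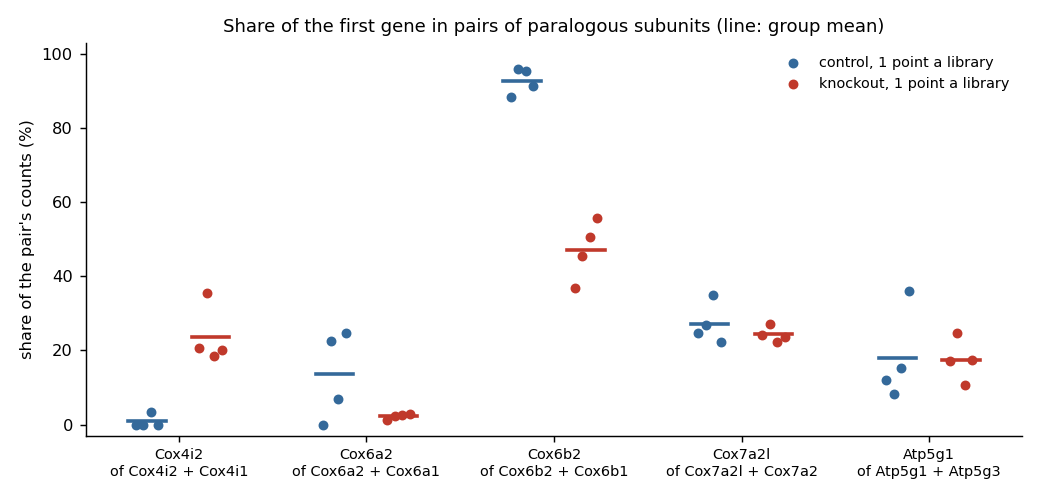
Share (%) of the first gene in the summed counts of 5 pairs of paralogous subunits, with 1 point a library and a line at each group mean. Cox4i2 and Cox6b2 separate knockout from control libraries, in opposite directions, and the other 3 pairs overlap.

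Among the remaining members of complex IV, Cox6c rose by a log2 fold change of 1.57 ± 0.28 (adjusted p = 0.00195), from 35.8 ± 14.7 to 106 ± 11.8 CPM. Cox6c2, which the GENCODE annotation lists as a processed pseudogene, followed at 1.62, but 45.2% of its 75-base stretches also occur elsewhere, in Cox6c above all, so the reads of these 2 cannot be separated with certainty. Cox5a, a subunit close to the catalytic core, had 7.19, 3.61, 6.55 and 11.8 CPM in knockout and 14.6, 23.1, 14.4 and 13.1 CPM in control libraries. Its groups did not overlap, but its log2 fold change of -1.16 ± 0.42 was not called in edgeR (adjusted p = 0.0604). It was called lower by DESeq2 (adjusted p = 0.0169), by voom (0.0177) and without knockout replicate 4 (0.0346). Cox5a was singled out after its values were seen.

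Cox8a, the smallest broadly expressed subunit, lay between 64.5 and 104 CPM in knockout and 71.2 and 111 CPM in control libraries (log2 fold change -0.16; adjusted p = 0.631). Cox5b was at a log2 fold change of 0.20. Of the 5 untested members Cox7a1, Cox7b2 and Cox8b had no count in any library, while Cox7c had 80 knockout and 7 control counts and Cox8c 44 and 3.

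In complex V 14 of 17 members were tested and 7 were higher, with a median log2 fold change of 0.93. Of these 7, Atp5c1, Atp5a1 and Atp5d sit in the catalytic F1 head. Atp5d, Atp5h and Atp5j reached the filter's minimum level in 1, 3 and 1 control libraries and in 4 knockout libraries each. Their calls are therefore no independent support for the difference. Atp5c1, the central rotating stalk (gamma), had 110, 116, 135 and 107 CPM in knockout and 73.4, 64.2, 38.7 and 61.5 CPM in control libraries (log2 fold change 0.98 ± 0.22; adjusted p = 0.0073). Atp5a1, the alpha subunit, had 179, 165, 133 and 181 CPM in knockout and 76.2, 114, 114 and 88.0 CPM in control libraries (log2 fold change 0.75 ± 0.19; adjusted p = 0.0144). In both, the lowest knockout library was above the highest control library.

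The partner of alpha was not called. Atp5b, the beta subunit with the catalytic sites, ranged from 225 to 317 CPM in knockout and from 220 to 302 CPM in control libraries, a log2 fold change of 0.09 ± 0.17 (adjusted p = 0.748). Atp5d (delta) was called higher at a log2 fold change of 3.24 ± 0.93 (adjusted p = 0.0234) from 284 knockout and 26 control counts, and its call was lost without knockout replicate 1 or 2 or control replicate 2. Atp5e (epsilon) was at 0.27 and not called.

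In the membrane part and the peripheral stalk, Atp5f1, the stalk subunit b, had 112, 131, 137 and 161 CPM in knockout and 47.9, 34.6, 29.1 and 49.8 CPM in control libraries (log2 fold change 1.75 ± 0.23; adjusted p = 0.000351). Atp5mpl, a small proteolipid bound to the enzyme, had 86.5, 70.9, 65.1 and 52.1 CPM in knockout and 16.4, 10.8, 9.15 and 25.0 CPM in control libraries (log2 fold change 2.17 ± 0.33; adjusted p = 0.000951). Both rose without overlap. Atp5h (subunit d) and Atp5j (coupling factor F6) were higher by log2 fold changes of 2.31 and 3.06, on 1.26 and 1.45 CPM in the controls. Atp5j was at 4.29 without control replicate 1 and lost its call without knockout replicate 2, 3 or 4 or control replicate 2 or 4, and 12.7% of its exonic bases are shared with Gabpa. Of the 75-base stretches of Atp5h, 14.6% occur in other transcripts.

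The c subunit, which forms the rotating ring, is made from 3 genes. Atp5g1 had 1.80, 3.24, 0.987 and 2.51 CPM in knockout and 0.550, 0.639, 1.15 and 2.30 CPM in control libraries (log2 fold change 0.88; adjusted p = 0.435). Atp5g3 had 8.76, 9.93, 8.26 and 11.8 CPM in knockout and 4.07, 7.19, 6.35 and 4.10 CPM in control libraries (0.83; adjusted p = 0.158). Atp5g2 had 5 counts in all. The Atp5g1 share of the counts of Atp5g1 and Atp5g3 was 17.5 ± 5.68% in knockout and 17.8 ± 12.4% in control libraries (exact permutation p = 0.943).

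The other members of complex V were not called in edgeR. Atp5o, which links the stalk to the head, was at a log2 fold change of 1.81 (adjusted p = 0.058) and shares 44.0% of its exonic bases with overlapping genes. It was called higher by DESeq2 (adjusted p = 0.0147), by voom (0.0495) and in edgeR with library totals alone (0.0230). Atp5j2 and Atp5k, small subunits of the membrane part, were at -0.42 and -0.16. Atp5l had 47 knockout and 14 control counts and Atp5s 69 and 16, and neither was tested.

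Summed over all members, complex II stood at 733 ± 29.9 CPM in knockout and 302 ± 26.9 CPM in control oocytes (SD, n = 4), a ratio of 2.43. Complex IV stood at 659 ± 64.7 and 416 ± 118 CPM (ratio 1.59) and complex V at 818 ± 49.4 and 499 ± 43.7 CPM (ratio 1.64). In complexes II and V each knockout library was above each control library, in CPM and per length, with each of the 3 scalings examined. In complex IV this held for the CPM given here. It failed with median-of-ratios factors (knockout replicate 4 at 568 and control replicate 4 at 578 CPM) and per length in the scaling given here (824 and 896 RPKM). The complex IV sum includes the annotated pseudogene Cox6c2. Without Cox6c2 the ratio was 1.54 in CPM and 1.29 per length, with knockout replicate 4 at 543 and control replicate 4 at 541 CPM. The sums of complex III overlapped, at 434 ± 59.2 and 337 ± 105 CPM (ratio 1.29), with control replicate 4 at 470 CPM above knockout replicates 1 and 4. In complex III the sum is dominated by Uqcrc2. Scaled by library totals alone, the ratios were 3.21, 1.72, 2.13 and 2.15 for complexes II to V. With library totals the groups also separated in complexes III and IV, in CPM and per length. In complex III the lowest knockout library was then at 409 and the highest control library at 376 CPM. Per length, with the scaling used elsewhere here, the ratios were 3.01, 1.62, 1.43 and 2.20 for complexes II to V. Complex II had the largest ratio in both units, and the smallest was that of complex III in CPM and of complex IV per length. The sums of complexes II and III include assembly factors. Sdhaf4 alone stood at 188 ± 30.3 RPKM in knockout and 74.0 ± 25.5 RPKM in control oocytes, and sums of subunits alone were not compared.

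**Figure D4:**
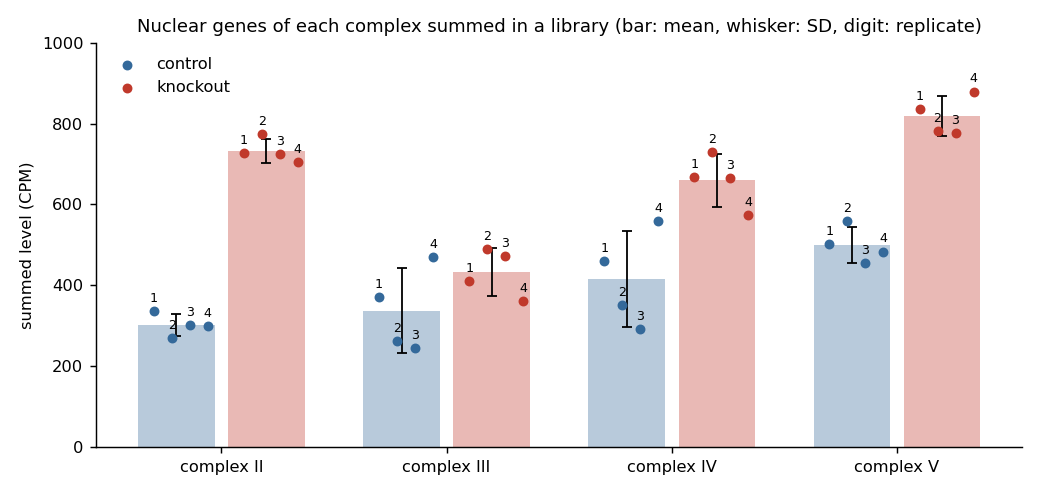
Summed level (CPM) of all members of complexes II, III, IV and V in each library, with bars for the mean, whiskers for the SD and digits for the replicate number. In this scaling complexes II, IV and V separate the groups, complex IV only narrowly (573 against 559 CPM), and in complex III control replicate 4 (470 CPM) lies among the knockout libraries.

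Some libraries stood apart across many members. Among the controls, replicate 4 was the highest in 22 of 46 tested members (47.8%, against 28.9% of all tested genes) and replicate 3 the lowest in 24 (52.2%, against 24.4%). Among the knockouts, replicate 4 was the lowest in 20 (43.5%, against 25.3%). The part of these libraries in the calls is given by leaving each out, which gave 19 to 27 members higher and 1 or 2 lower. Of all 11364 to 11696 tested genes, 1012 to 1597 were then higher and 837 to 1244 lower.

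Short genes can differ from long ones in such libraries, so fold changes were set against gene length. Spearman's rho of the log2 fold change across the 46 tested members was 0.04 with length and -0.18 with level, against -0.15 and -0.34 across all 11066 tested genes, and genes are not independent replicates. The members are short, with a median exonic length of 1262 bases in the tested members against 3580 in all tested genes. With a trend on length removed from each library 24 members were higher and 1 lower, where 13.8% and 11.2% of all tested genes were called, with a median log2 fold change of 1.18 against 0.13 for all tested genes.

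Promoter windows were matched for 44 of 57 members. The NRF1 motif occurred in 12 of the 44 (27.3%), in 11.3% of 8307 windows of tested genes and in 4.60% of all 32851 windows. It was in 29.4% of the 17 windows of members called higher and in 31.3% of the 16 of tested members not called. The ETS motif CCGGAAGT occurred in 9.09% of member windows and 9.05% of windows of tested genes, and the CCAAT box in 54.5% and 39.5%. The SP1 motif GGGCGG occurred in 22 of the 44 and in 63.4% of windows of tested genes, the YY1 motif AAGATGGC in 6.82% and 4.96% and the letters TATAAA in 9.09% and 7.23%, on either strand in each case.

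Neighbouring parts of mitochondrial function were described by the same fit. The subunits of complex I had 17 of 34 tested genes higher and 1 lower, with a median log2 fold change of 1.43. A further list held assembly factors and other proteins of complexes II to V whose symbols fall outside the pattern of the members. Of its 30 tested genes, 7 were higher and none lower (median 0.48). Among the 7 were Cox14 (2.23), Surf1 (2.00) and Usmg5 (4.58, on 0.0656 CPM in the controls). Ndufa4, which was not called, was counted both in this list and among the complex I genes. Of 17 tested enzymes of the tricarboxylic acid cycle and its pyruvate and oxoglutarate dehydrogenases, 7 were higher and 1 lower (median 0.85), with Mdh2 at 3.19, Dld at 1.43 and Pdhx, a structural component of pyruvate dehydrogenase, at -1.75.

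Of 8 tested genes encoded by mitochondrial DNA none was called by edgeR or DESeq2, nor reached an unadjusted p under 0.05 in edgeR. Their median log2 fold change was 0.08, with mt-Co1 at 0.32, mt-Nd6 at 0.25 and mt-Nd2 at -0.18. Only mt-Cytb (complex III, 0.035) and mt-Co1 (complex IV) belong to the complexes of the members, and the rest encode complex I subunits. Among the rest, mt-Nd3 had only 63 knockout and 52 control counts. No mitochondrially encoded gene of complex V was tested, so nuclear and mitochondrial genes of that complex could not be compared. Scaled by library totals alone, 4 of the 8 tested genes were higher, where 21.5% of all tested genes were higher and 4.55% lower. No library had a count for mt-Co2, mt-Co3, mt-Atp8 or mt-Nd4l, and mt-Atp6 had 1 knockout and 2 control counts. By contrast mt-Cytb had 1126859 knockout and 960680 control counts. A missing count here does not show that a transcript was absent, and the part of mapping and counting was not tested. Among 19 tested genes of mitochondrial biogenesis 4 were higher, including Phb2 (1.40), Tfb1m (1.53) and Nrf1 itself (0.89), and Ppargc1b was lower (-1.22). Among 18 tested carriers and import proteins of the mitochondrial membranes 3 were higher, including Tomm22 (3.02) and Slc25a4 (1.34), and Hspa9 was lower (-0.78). These counts can be read against the 13.6% of all tested genes called higher and 12.2% called lower.

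The authors' deposited table listed 24 members among its 2709 genes, 23 higher and 1 lower. The lower gene was Cox6b2, with a shrunken log2 fold change of -1.57 in the authors' deposited table. Cox7c, which did not pass the filter of the edgeR test, was listed as higher in the authors' deposited table. Uqcr10, Uqcr11 and Cox7a2, called here at a threshold of 0.05, were not listed in the authors' deposited table, whose largest adjusted p is 0.009996.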

How the data were processed

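Single-oocyte RNA was amplified with the SMARTer Ultra Low kit and sequenced as 75-bp single reads, per the labels' protocols, without molecular identifiers, so counting intervals cover counting error only. The authors' counts per gene came from featureCounts 1.4.4 on Ensembl release 69 without strand and with a minimum mapping quality of 1, per the file headers. GSNAP, DESeq2 1.3.79 and the build mm10 are named in the submitters' processing notes. Reads of overlapping or near-identical genes therefore cannot be told apart. The authors' deposited table gives log2 fold changes and adjusted p-values. It also holds a normalized signal and RPKM values by the authors, which were not used here.

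The members, gene lists and tests were chosen with earlier results of these data known. The deposited counts went into edgeR 4.0.16 under R 4.3.3 (filterByExpr, quasi-likelihood F test, TMM factors, genotype as the only term), with Benjamini-Hochberg adjustment over 11066 genes and a threshold of 0.05. The TMM factors were 1.07 to 1.22 in knockout and 0.799 to 0.946 in control libraries, so they separated the groups. The SE is the log2 fold change divided by the square root of F. CPM and RPKM used totals multiplied by TMM factors and the deposited gene length. The filters on level used totals without these factors. The fit was tested on simulated counts. Values in every library are given for the 4 members with the smallest p in each complex, lower members and paralogous sets with at least 2 tested genes, and of each other list 3 genes are named. Shares of paralogues were compared by exact permutation over libraries (scipy 1.17.1, pseudocount 0.5). Shared 75-base stretches came from GENCODE release M21 and promoter windows from RefSeq GRCm38.p6. Alternatives were other scalings, filters, DESeq2 1.42.0, voom of limma 3.58.1, a length trend (loess, span 0.5), the replicate block and each library left out.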

Additional observations from a re-analysis of the deposited data

Results flagged for a closer look

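In 5 of 92 groups of 4 libraries examined over the 46 tested members, 1 library lay far from the other 3, where chance flags about 1 group in 20. Uqcc1 was at 11.4 CPM in knockout replicate 3, against 27.3 to 30.4 CPM in the other knockout libraries. Uqcr11 was at 11.9 CPM in control replicate 4, against 1.32 to 2.00 CPM. Cox4i2 was at 0.0824 CPM in control replicate 3, which is 1 count, against 0 in the other controls. Cox5a was at 23.1 CPM in control replicate 2, against 13.1 to 14.6 CPM. Atp5k was at 2.47 CPM in knockout replicate 1, against 5.72 to 6.37 CPM.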

How the results depend on the processing

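Of the 26 called members 18 were called under all 17 alternatives, and the exceptions were Uqcr10, Uqcr11, Cox7a2, Cox7a2l, Atp5a1, Atp5d, Atp5h and Atp5j. Scaled by library totals alone, the median log2 fold change was 1.81 for members (0.49 for all tested genes), and the summed ratios were 3.21 for complex II, 2.13 for complex IV, 2.15 for complex V and 2.26 for all members. Members called higher were 25 with size factors, 28 with library totals, DESeq2 or voom, 24 with the length trend removed and 22 of 30 tested with at least 10 CPM in 4 libraries, where complex V had 4, since fewer genes were tested. Of all 11066 tested genes, 1430 were higher with size factors, 2382 with library totals, 1846 in voom and 1531 with the length trend removed. In DESeq2 2149 of 18227 genes were higher, and with at least 10 CPM 1403 of 6577. DESeq2 and voom each called 2 members lower, both in complex IV (Cox6b2 and Cox5a), where 1835 of 18227 and 1537 of 11066 tested genes were lower. With 1 library left out, 19 to 27 members were higher and 1 to 2 lower, with 2 to 5 higher in complex III, 6 to 10 in complex IV, 5 to 7 in complex V and 1 to 2 lower in complex IV. Among the 11364 to 11696 genes tested in these fits, 1012 to 1597 were higher and 837 to 1244 lower. Among called members the fold change moved by over 1.5 times for Uqcr11 (log2 fold change 3.04 in voom and 3.59 without control replicate 4), Cox4i2 (6.47 in voom and 8.96 without control replicate 3), Cox7b (4.30 without control replicate 1) and Atp5j (4.55 in voom and 4.29 without control replicate 1), beside the block below. Uncalled in edgeR but called under some alternatives were Uqcrfs1, Uqcrh, Cox4i1, Cox5a and Atp5o, and Cox4i1 moved by over 1.5 times (1.70 without control replicate 4 and 1.74 in voom).

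The Setd1b log2 fold change missed the threshold with library totals (-1.04), with the length trend removed (-1.09) and without knockout replicate 3 or control replicate 2, and ranged from -1.57 to -1.33 with 1 library left out. Members near 0 changed sign: with library totals Sdha was at 0.26, Uqcrc2 at 0.41, Cox8a at 0.26, Atp5j2 at 0.0015 and Atp5k at 0.23, and Uqcrc2 was at 0.13 with at least 10 CPM and 0.13 in voom. With 1 library left out, the ranges crossed 0 for Uqcc1 (-0.075 to 0.28), Uqcrc2 (-0.16 to 0.20), Atp5k (-0.29 to 0.077), Atp5b (-0.0072 to 0.18), Cox6a2 (-0.071 to 1.56), Cox5b (-0.034 to 0.37) and the difference in the log2 ratio of Atp5g1 to Atp5g3 (-0.27 to 0.59). The cause was not tested.

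Same-numbered libraries of the 2 groups did not deviate together (r from -0.117 to -0.0212 across genes). These correlations cannot decide whether the numbers mark oocytes collected as pairs. With the replicate block 21 members were higher and 1 lower, where 1090 and 861 of 11066 tested genes were. In that fit Uqcrc2 was at 0.034, Uqcr11 at 2.87, Atp5j at 3.82 and Setd1b at -1.46 (adjusted p = 0.07), and the calls of Uqcr10, Cox7a2l, Atp5a1 and Atp5h were lost. A count of 0 allows up to 0.222 to 0.316 CPM at these depths. The 11 members below the filter have no edgeR value here.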
